A study of Mus musculus with 20 samples.

Results

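The core circadian clock was described in the mouse pancreas around birth through 10 genes taken by symbol: Arntl (also called Bmal1), Clock, Nr1d1, Nr1d2, Dbp, Per1, Per2, Per3, Cry1 and Cry2. Each had exactly 1 probe set that carried its symbol alone, so the 10 stood among 30063 genes with a chosen probe set. All 10 were also among the 17993 genes whose signal passed the filter and entered the tests. The rule takes them by name, with no threshold on a measured value, although earlier results of these data were known when the set was drawn up.

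RNA from whole pancreas of C57BL/6J mice was measured on 20 Affymetrix arrays. Animals without inceptor (genotype Iir -/-, called knockout) were set beside wild-type animals (Iir +/+) at 2 ages. Embryonic day 18.5 (E18.5) had 4 wild-type and 5 knockout arrays, and the day of birth (P0) had 5 wild-type and 6 knockout arrays. Inceptor, the product of Elapor1, is a transmembrane protein that dampens insulin receptor signalling. Mothers of the embryos went without food for 2 h before dissection and the pups for 5 h, so age and the length of starvation cannot be told apart. Sex was not determined by the submitters, and how the Iir allele was made is not given in the sources used here. The hour of collection is not given either, so the hour of day cannot be told apart from age or genotype. Whether the arrays of a group are separate animals is not stated, and p-values then measure the spread between these samples, which may be technical. In whole tissue, fewer cells of a type and less RNA per cell cannot be told apart.

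The clock is a feedback loop of transcription that runs in almost every cell. The proteins of Arntl and Clock form a dimer that binds E-box sequences and switches on Per, Cry, Nr1d and Dbp genes; PER and CRY proteins return to the nucleus and block the dimer. NR1D1 and NR1D2 repress Arntl through ROR elements, where ROR proteins activate it, and DBP acts on D-boxes in a further loop. In adult tissues with a running clock, Arntl and its targets peak at opposite times of day. Per1 is also switched on by glucocorticoids and by cAMP signalling, independently of the dimer, and clocks of peripheral tissues respond to feeding and fasting. In the adult pancreas the islet clock is known for its part in timed insulin secretion.

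Promoter stretches that hold these elements are shown because the genes are grouped below by their place in the loop. RefSeq windows on GRCm38.p6 (250 bases before the transcription start to 50 after it) were matched by symbol for 9 of the 10 genes; Per2 was not matched. Both strands were searched for the E-box CACGTG, an E-box-like element, CACGTT on one strand and AACGTG on the other, the D-box TTATGTAA or TTACGTAA, the ROR element core TAGGTCA or TGGGTCA and the cAMP response element TGACGTCA. Capitals mark the matches, and each stretch runs 5′ to 3′ on the strand of its gene. None of these elements overlaps another within the stretches.
Per1 (chr11:69098763-69098808, plus strand): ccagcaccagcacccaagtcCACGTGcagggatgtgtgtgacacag
Cry1 (chr10:85185097-85185145, minus strand): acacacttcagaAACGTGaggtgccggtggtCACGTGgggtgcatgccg
Cry2 (chr2:92434210-92434255, minus strand): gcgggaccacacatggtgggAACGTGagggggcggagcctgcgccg
Nr1d1 (chr11:98775380-98775425, minus strand): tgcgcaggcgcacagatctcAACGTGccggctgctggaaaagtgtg
Per3 (chr4:151044804-151044882, minus strand): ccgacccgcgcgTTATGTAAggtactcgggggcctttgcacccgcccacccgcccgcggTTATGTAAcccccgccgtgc
Arntl (chr7:113207531-113207557, plus strand): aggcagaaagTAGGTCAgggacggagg

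The E-box stood in Per1 and Cry1, 2 of 9 genes, against 8.09% of all 27025 genes with a window. The E-box-like element stood in Cry1, Cry2 and Nr1d1, 3 of 9 genes, against 5.44% of genes. Per3 alone of the 9 held the D-box, with 2 copies at -205 and -158 bases from the start, against 1.23% of genes. Arntl alone held the ROR core, 30 bases after the transcription start in 1 of its 2 windows, against 7.35% of genes. The cAMP response element was in 0 of 9 genes and 2.03% of all genes. Clock, Nr1d2 and Dbp held none of these letters in their windows. A match is a stretch of letters, not a measured binding site.

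Elapor1, the targeted gene, had a log2 signal of 11.66 to 12.06 in E18.5 wild type and 5.79 to 6.50 in E18.5 knockouts. At P0 it was 11.07 to 12.01 in wild type and 5.58 to 6.38 in knockouts. Every array thus fitted the genotype in its label, while the ages overlapped in Elapor1 and were not checked by it. Array medians lay between 4.81 and 4.94. Mean log2 signals of marker lists were high for pancreatic acinar cells (15.78 to 17.05 over the 20 arrays, 9 genes) and islets (12.17 to 12.93, 10 genes), low for lymphoid cells (4.75 to 5.14, 6 genes) and uneven for liver (6.62 to 12.34, 13 genes), intestine (5.25 to 8.05) and skeletal muscle (5.05 to 8.39). The deposited values end at a ceiling of 19.93, which 261 to 278 probe sets per array share; no clock gene came near it. The mean of 3 Y-linked genes was 7.42 to 7.99 on 5 arrays (E18.5 wild-type replicates 1 and 4, E18.5 knockout replicate 5, P0 wild-type replicate 4 and P0 knockout replicate 4) and at most 4.44 on the other 15. With this mean as a covariate the clock counts given further on, 7 in knockouts and 4 in wild type between the ages and 0 in each genotype contrast, were the same numbers.

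At E18.5, 3 arrays stood apart in several clock genes: wild-type replicates 3 and 4 and knockout replicate 5. Their running sample numbers are 20 to 22, those of the other 6 are 13 to 19, and what the number stands for is not given. All P0 arrays have numbers from 1 to 12, below every E18.5 number. Whatever the number stands for therefore cannot be told apart from age in the comparison of P0 with E18.5. Per1 was 7.18 to 7.43 on the 3 arrays and 6.53 to 6.83 on the 6. Cry2 was 6.11 to 6.26 against 5.65 to 5.82, and Per3 5.49 to 5.63 against 5.23 to 5.38. Of all 17993 tested genes, 617 (3.43%) did not overlap between these sets, beside 3 of the 10 clock genes. The sets were told apart after these values were seen, so the gap in these 3 genes is a description of the arrays and no test. The mean of 13 glucocorticoid target genes was also higher on the 3 arrays (8.22 to 8.45 against 7.85 to 7.96). So were the means of the FOXO and starvation targets (7.73 to 7.74 against 7.38 to 7.55) and of the liver markers (10.92 to 11.63 against 8.47 to 9.98). The part of these 3 lists in the clock gene values was not tested. The other clock genes overlapped.

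**Figure D1:**
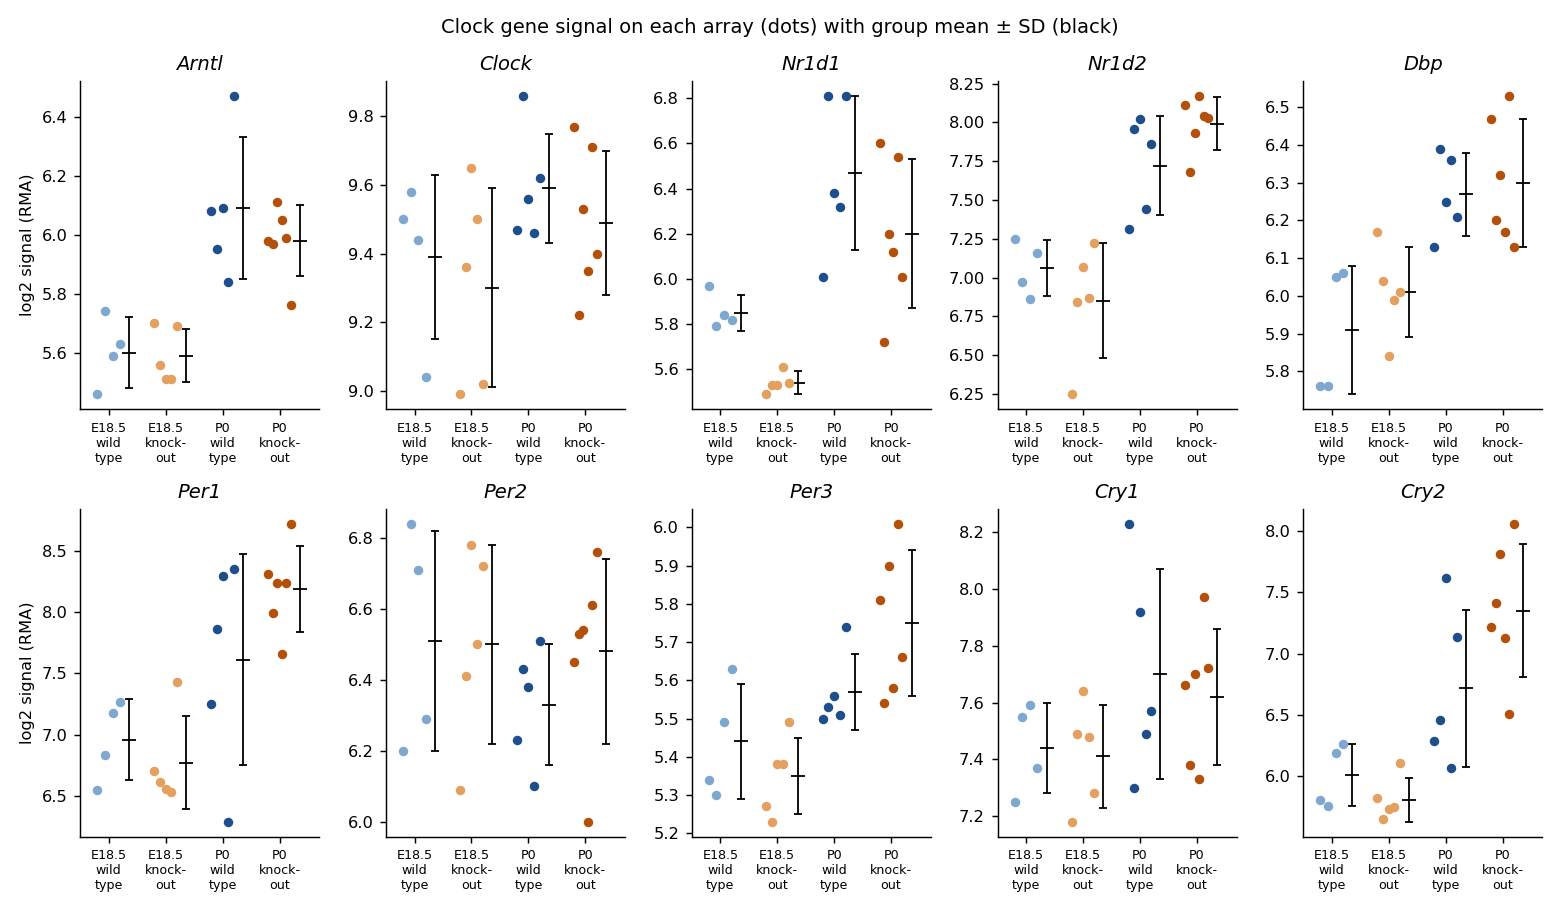
Log2 signal (RMA) of the 10 clock genes on each of the 20 arrays, 1 panel per gene with its own axis; dots are arrays, black bars the group mean ± SD. Arntl, Nr1d1 and Nr1d2 sit higher at P0 than at E18.5 without overlap in both genotypes, and Per2 overlaps throughout.

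All 10 genes were above the array median on all 20 arrays. The margin was smallest for Per3 (0.33 to 1.12 log2 units above the median of the same array) and largest for Clock (4.05 to 4.93). Within groups, the SD pooled over the 4 groups was 0.53 for Per1 and 0.46 for Cry2, and 0.14 to 0.27 for the other 8. Per1 thus had the widest range over arrays, 2.44 log2 units, followed by Cry2 with 2.41, while Per3 and Dbp each spanned 0.78.

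The comparison of P0 with E18.5 asks how the clock genes stood before and after birth. In knockouts 7 of the 10 genes rose (adjusted p under 0.05), by 1.22-fold to 2.92-fold, and none fell; 23.0% of all tested genes were called in this contrast, 11.3% as higher and 11.7% as lower. In wild type 4 of 10 rose, by 1.28-fold to 1.58-fold, and none fell, where 8.86% of all genes were called, 4.76% as higher and 4.1% as lower. Arntl, Nr1d1, Nr1d2 and Dbp rose in both genotypes; Per1, Per3 and Cry2 passed in knockouts only, and their age differences did not pass the test of a difference between genotypes given below. Clock, Cry1 and Per2 passed in neither. The median difference of the 10 genes was 0.39 (log2) in knockouts and 0.42 in wild type, beside -0.004 and 0.006 over all tested genes. All P0 arrays were above all E18.5 arrays for 6 genes in knockouts (5.9% of all genes) and for 4 in wild type (6.24%).

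Arntl, whose protein is the obligate partner of the activating dimer, was 5.46, 5.74, 5.59 and 5.63 on the E18.5 wild-type arrays and 6.08, 5.95, 6.09, 5.84 and 6.47 on the P0 wild-type arrays. In knockouts it was 5.70, 5.56, 5.51, 5.51 and 5.69 at E18.5 and 5.76 to 6.11 (median 5.99, n = 6) at P0. Every P0 array was above every E18.5 array of its genotype. The rise was 0.48 ± 0.10 (log2, SE) in wild type (adjusted p = 0.00781) and 0.38 ± 0.09 in knockouts (1.30-fold, adjusted p = 0.00643). Arntl was the only clock gene called in wild type under each omission of 1 array, with adjusted p of 0.00516 to 0.0358. Clock, the other partner of the dimer, was higher at P0 by 0.20 ± 0.15 in wild type (adjusted p = 0.446) and 0.19 ± 0.14 in knockouts (adjusted p = 0.34), without passing the test.

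Nr1d1, which encodes the repressor REV-ERBα, was 5.97, 5.79, 5.84 and 5.82 in E18.5 wild type and 6.01, 6.81, 6.38, 6.32 and 6.81 in P0 wild type. The knockout arrays were at 5.49, 5.53, 5.53, 5.61 and 5.54 at E18.5 and 5.72 to 6.60 (median 6.16, n = 6) at P0. The P0 arrays were higher without overlap in both genotypes and also more spread, with an SD of 0.34 and 0.33 against 0.08 and 0.05. The rise was 0.61 ± 0.17 in wild type (adjusted p = 0.0287) and 0.66 ± 0.15 in knockouts (1.58-fold, adjusted p = 0.00407).

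Nr1d2, its close relative REV-ERBβ, was 7.25, 6.97, 6.86 and 7.16 in E18.5 wild type and 7.31, 7.96, 8.02, 7.44 and 7.86 in P0 wild type. In knockouts it was 6.25, 6.84, 7.07, 6.87 and 7.22 at E18.5 and 7.68 to 8.17 (median 8.03, n = 6) at P0. Neither genotype showed overlap between the ages, and the gap in knockouts was wide. The rise was 0.66 ± 0.18 in wild type (1.58-fold, adjusted p = 0.0273) and 1.14 ± 0.16 in knockouts (2.21-fold, adjusted p = 0.000131), which was the smallest adjusted p among the 10 genes.

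Dbp, a PAR bZIP factor and output of the loop, was 5.76, 5.76, 6.05 and 6.06 in E18.5 wild type and 6.13, 6.39, 6.25, 6.36 and 6.21 in P0 wild type, without overlap. In knockouts it was 6.17, 6.04, 5.84, 5.99 and 6.01 at E18.5 and 6.13 to 6.53 (median 6.26, n = 6) at P0, with overlap from knockout replicate 1 at E18.5. The rise was 0.36 ± 0.10 in wild type (adjusted p = 0.0275) and 0.29 ± 0.09 in knockouts (adjusted p = 0.022); without E18.5 knockout replicate 3 the latter was 0.25 with an adjusted p of 0.065. Arntl, both Nr1d genes and Dbp were therefore called in the same direction in both genotypes.

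Per1, a repressor that responds quickly to signals from outside the loop, was 6.55, 6.83, 7.18 and 7.27 in E18.5 wild type and 7.25, 7.86, 8.29, 6.29 and 8.35 in P0 wild type. Knockout values were 6.70, 6.61, 6.56, 6.53 and 7.43 at E18.5 and 7.66 to 8.72 (median 8.24, n = 6) at P0. In knockouts the ages did not overlap, and in wild type P0 replicate 4 was below every E18.5 array. The difference was 1.43 ± 0.30 in knockouts (2.69-fold, adjusted p = 0.00266) and 0.65 ± 0.34 in wild type (adjusted p = 0.251). Without P0 wild-type replicate 4 the wild-type difference was 0.98 and passed (adjusted p = 0.0305). This array alone of its group had a high Y-linked mean. It was also the lowest of its group in Cry2 (6.07) and in Rora (8.15) and Klf9 (6.11), described below, but not in Nr1d1 or Dbp. P0 knockout replicate 4, with a high Y-linked mean too, had 7.13, 9.28 and 7.69 in Cry2, Rora and Klf9. What set the wild-type array apart was not tested. With the Y-linked mean as a covariate the wild-type Per1 difference was 0.55 (adjusted p = 0.329).

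Cry2, a repressor that holds the dimer inactive, was 5.81, 5.76, 6.19 and 6.26 in E18.5 wild type and 6.29, 6.46, 7.62, 6.07 and 7.14 in P0 wild type. The knockouts had 5.82, 5.65, 5.73, 5.75 and 6.11 at E18.5 and 6.51 to 8.06 (median 7.31, n = 6) at P0. The knockout ages did not overlap, and in wild type 4 of 5 P0 arrays were above every E18.5 array. The difference was 1.55 ± 0.27 in knockouts (2.92-fold, adjusted p = 0.000638), the largest among the 10 genes, and 0.71 ± 0.30 in wild type (adjusted p = 0.145).

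Per3 was 5.34, 5.30, 5.49 and 5.63 in E18.5 wild type and 5.50, 5.53, 5.56, 5.51 and 5.74 in P0 wild type, with overlap. In knockouts it was 5.27, 5.23, 5.38, 5.38 and 5.49 at E18.5 and 5.54 to 6.01 (median 5.73, n = 6) at P0, without overlap. It rose in knockouts by 0.40 ± 0.09 (1.32-fold, adjusted p = 0.00302), and the wild-type difference was 0.13 ± 0.10 (adjusted p = 0.451). Per2 was the one gene of the 10 with a difference below 0, -0.18 ± 0.17 in wild type (adjusted p = 0.547) and -0.02 ± 0.15 in knockouts (adjusted p = 0.953), and it ran from 6.00 to 6.84 over all arrays. Cry1 was higher by 0.26 ± 0.17 in wild type (adjusted p = 0.356) and 0.21 ± 0.15 in knockouts (adjusted p = 0.341). Within the Per family Per1 and Per3 were called in knockouts and Per2 was not, and within the Cry family Cry2 was called and Cry1 was not.

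**Figure D2:**
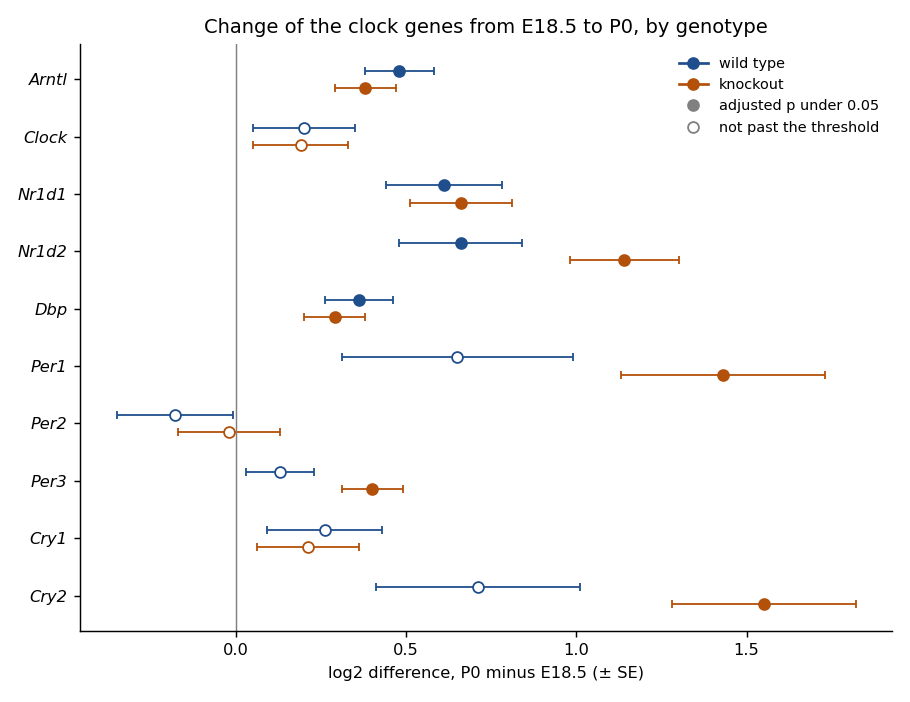
Log2 difference between P0 and E18.5 (± SE, limma) for the 10 clock genes in wild type and knockout; filled points have an adjusted p under 0.05. The knockout differences of Cry2 (1.55) and Per1 (1.43) lie farthest to the right with wide errors, and Per2 lies left of 0.

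The count of 7 in knockouts was 6 to 7 when any 1 array was left out. The wild-type count was less firm. It was 1 without E18.5 wild-type replicate 2 or P0 wild-type replicate 2, 2 without E18.5 wild-type replicate 1 or 3 or P0 wild-type replicate 3 or 5, and 2 without the 3 E18.5 arrays of numbers 20 to 22 (Arntl and Dbp). With the wild-type arrays fitted alone it was 0, with adjusted p between 0.0554 and 0.0661 for the 4 genes. The fit on all groups pools the spread over the 4 groups and has more residual information than 9 arrays alone.

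Other cell markers moved with age too. Their counts stand beside the shares of all tested genes, 11.3% called higher and 11.7% lower in knockouts, and 4.76% and 4.1% in wild type. Among 9 acinar genes, the transcription factors Ptf1a, Bhlha15 and Rbpjl were lower at P0 in both genotypes (differences of -3.03, -1.79 and -1.26 in wild type and of -3.00, -1.90 and -2.61 in knockouts), while the 6 enzyme genes, 4 of them at the ceiling, differed by at most 0.09 in size. The acinar mean was 16.58 to 17.05 at E18.5 and 15.78 to 16.41 at P0, without overlap, so it cannot be told apart from age. With this mean as a covariate, a setting added after the data were seen, 0 of 10 clock genes were called in either genotype, and 0 of all genes. Of 6 mesenchymal genes, Col3a1 and Dcn were higher in P0 knockouts (2 of 6) and none in P0 wild type; the mean was 10.50 to 11.20 at E18.5 and 10.92 to 11.67 at P0, and its part was not tested. Of 13 liver markers none was called in wild type and 1, Ambp, was lower in knockouts. The list as a whole went the other way there. Its difference was above 0 for 11 of 13 in knockouts (median 0.67) and for 1 of 13 in wild type (median -0.82). The test of a difference between genotypes in these age changes called 0 of 13 by limma, with 3 at an unadjusted p under 0.05. With the liver mean as a covariate the clock counts were 7 in knockouts and 3 in wild type. Of 6 tested intestinal genes, Vil1 was lower at P0 in both genotypes (-1.02 in wild type, adjusted p = 0.00488, and -1.49 in knockouts, adjusted p = 3.84e-05) and Cdx2 in knockouts (-0.42, adjusted p = 0.0248). With the intestinal and muscle means as covariates the clock counts were 6 in knockouts and 2 in wild type. Of 10 islet genes, Nkx6-1 was lower in both genotypes (-0.52 and -0.40), Pdx1 was lower in knockouts (-0.31), and Chga (1.10) and Gcg (0.50) were higher in wild type. Of 4 tested lymphoid genes, Cd3e was lower in both genotypes. The part of the islet and lymphoid markers was not tested.

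Around the 10 genes, a list of 32 other clock genes was read, of which 28 had a probe set of their own and 26 passed the filter. Rorb and Fbxl21 did not pass the filter, and the listed genes with no probe set of their own were not analysed here. Of the 26, 9 were called as higher and 2 as lower at P0 in knockouts, and 3 as higher and 1 as lower in wild type. The shares called among all tested genes were 23.0% and 8.86%, as given above.

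Among the 3 tested activators, Rora, the receptor that activates Arntl through ROR elements, rose in both genotypes. It was 8.20, 8.05, 8.15 and 8.14 in E18.5 wild type and 9.13, 9.76, 9.59, 8.15 and 9.42 in P0 wild type. The P0 arrays were at 8.15 in replicate 4, inside the E18.5 range, and above 9 in the other 4. The rise was 1.07 ± 0.26 in wild type (2.11-fold, adjusted p = 0.0176) and 1.51 ± 0.24 in knockouts (2.84-fold, adjusted p = 0.000299), where every P0 array was at 9.26 or above and every E18.5 array at 8.54 or below. Arntl2, a paralogue of Arntl, fell in knockouts by 0.41 (SE 0.11, adjusted p = 0.0135) and differed by -0.07 ± 0.12 in wild type (adjusted p = 0.79). The difference between these age changes was -0.34 ± 0.17 and did not pass the limma test (adjusted p = 0.724). Npas2, a paralogue of Clock, differed by 0.07 or less in size.

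Among the 5 tested repressors, Bhlhe40 (DEC1), which competes for E-boxes, fell in both genotypes. It was 6.44, 6.41, 6.16 and 5.77 in E18.5 wild type and 5.27, 5.71, 5.57, 5.36 and 5.37 in P0 wild type, without overlap. The fall was -0.74 ± 0.16 in wild type (adjusted p = 0.00995) and -0.64 ± 0.15 in knockouts (adjusted p = 0.00466). Bhlhe41, Nfil3, Timeless and Tipin were not called in either genotype. So Bhlhe40 went down where the Nr1d repressors went up.

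Of 9 tested genes that modify clock proteins, 5 rose in knockouts, where 11.3% of all genes were called higher: the ubiquitin protease gene Usp2 (0.98 ± 0.28, adjusted p = 0.0181), the casein kinase genes Csnk1d (0.43 ± 0.10, adjusted p = 0.00537), Csnk1a1 (0.32 ± 0.09, adjusted p = 0.0124) and Csnk1e (0.26 ± 0.08, adjusted p = 0.0211), and the F-box gene Fbxl17 (0.32 ± 0.10, adjusted p = 0.0317). Casein kinases phosphorylate PER proteins and set their turnover. Csnk1a1 (0.42 ± 0.10, adjusted p = 0.0123) and Fbxl17 (0.40 ± 0.11, adjusted p = 0.0392) also rose in wild type, where 4.76% of all genes were called higher. The test of a difference between genotypes in these age changes called 0 of 9 by limma. For Usp2 that difference was 0.46 ± 0.42 (adjusted p = 0.868). Gsk3b, Csnk2a1, Btrc and Fbxw11 were called in neither genotype.

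Of 9 tested output genes, Klf9, Hlf and Wee1 rose in knockouts (11.3% of all genes were called higher) and none was called in wild type (4.76%). The interaction called 0 of 9 by limma, and 0 at an unadjusted p under 0.05; for Klf9 it was 0.87 ± 0.42 (adjusted p = 0.719). Klf9, a Krüppel-like factor that is a clock output and a glucocorticoid target, differed most, by 1.83 ± 0.28 in knockouts (3.55-fold, adjusted p = 0.000274) and 0.96 ± 0.31 in wild type (adjusted p = 0.064). Hlf, a PAR bZIP relative of Dbp, rose by 0.43 ± 0.11 (adjusted p = 0.00905) and Wee1, a cell cycle kinase with E-boxes in its promoter, by 0.50 ± 0.15 (adjusted p = 0.0192). Tef, the other PAR bZIP gene, differed by 0.16 ± 0.11 (adjusted p = 0.323).

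**Figure D3:**
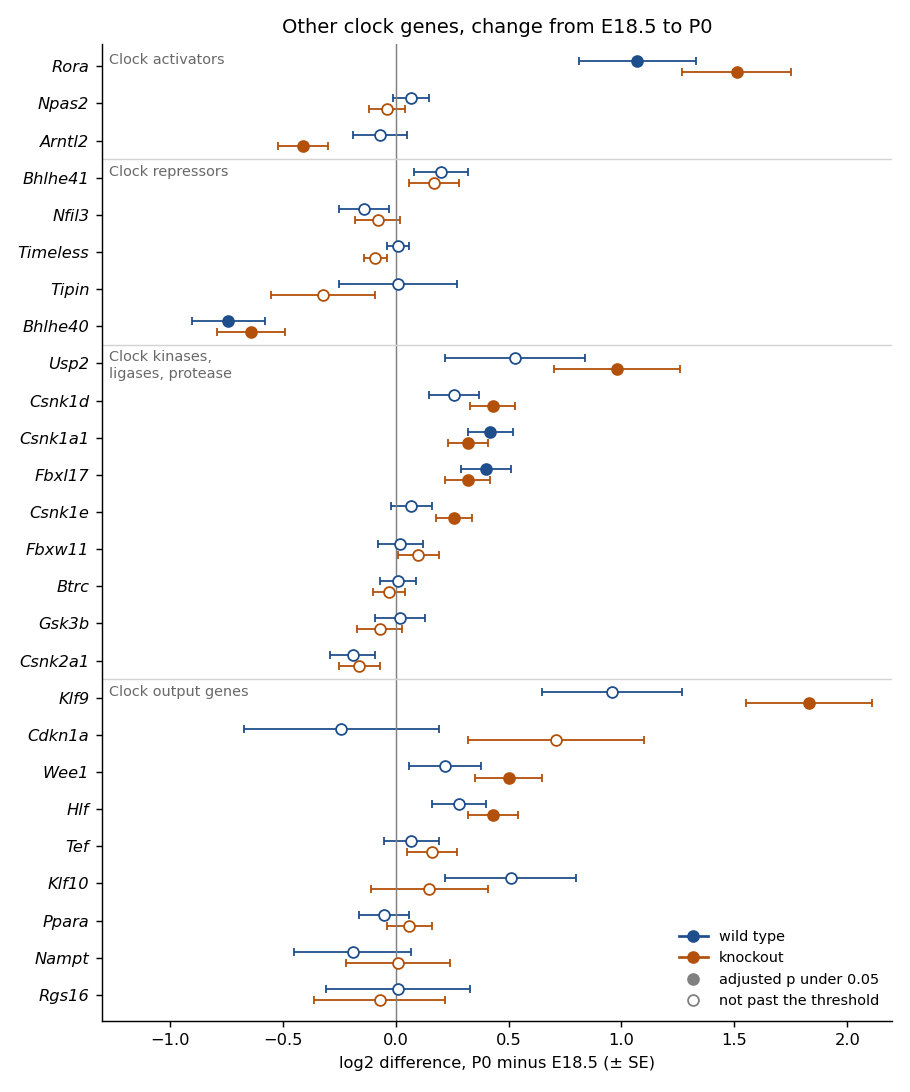
Log2 difference between P0 and E18.5 (± SE, limma) for 26 other clock genes by role, in wild type and knockout; filled points have an adjusted p under 0.05. Rora and Bhlhe40 are filled in both genotypes on opposite sides of 0, and Klf9 reaches 1.83 in knockouts.

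The comparison of knockout with wild type asks whether loss of inceptor went with another level of clock genes. No clock gene was called at E18.5 (0 of 10; 0.0111% of all genes were called), at P0 (0 of 10; 0.0111%) or averaged over both ages (0 of 10; 0.0167%) by limma. At an unadjusted p under 0.05 the counts were 0 of 10 at E18.5 (5.45% of all genes), 1 of 10 at P0 (8.76%) and 1 of 10 averaged (6.56%). The contrasts with wild type at one age share no array with those at the other. A p above the threshold does not show equal levels, and the 95% intervals of the differences were wide for Per1 and Cry2.

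Nr1d1 was the clock gene whose genotypes did not overlap at E18.5, with 5.49 to 5.61 on the 5 knockout arrays and 5.79 to 5.97 on the 4 wild-type arrays. Non-overlap at E18.5 was found for 1 of 10 clock genes and 2.45% of all tested genes. The difference was -0.32 ± 0.17 (1.24-fold lower, unadjusted p = 0.073, adjusted p = 0.921), where the SE holds the wider spread of the P0 arrays. With the E18.5 arrays fitted alone the SE was 0.05, the unadjusted p 0.000212 and the adjusted p 0.409. The two-sided exact permutation test gave p = 0.00794, the smallest that 4 against 5 arrays allow, for a gene singled out after its values were seen. At P0 the genotypes overlapped, at 5.72 to 6.60 in knockouts and 6.01 to 6.81 in wild type, and the difference was -0.27 ± 0.15 (adjusted p = 0.621). Averaged over both ages it was -0.29 ± 0.11 (unadjusted p = 0.0179, adjusted p = 0.685).

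At P0, Cry2 was 0.64 ± 0.27 higher in knockouts (95% interval 0.07 to 1.20, unadjusted p = 0.0286, adjusted p = 0.554), with 5 of 6 knockout arrays above the wild-type mean and wide overlap. Per1 was 0.59 ± 0.30 higher (interval -0.05 to 1.23, adjusted p = 0.592); all 6 knockout arrays were above the wild-type mean, which P0 wild-type replicate 4 lowered, and without that array the difference was 0.26. Per3 was 0.18 ± 0.09 higher (adjusted p = 0.571). The other 6 differed by 0.27 or less in size. The fit on all groups also holds the E18.5 arrays, where Cry2 was less spread. With the P0 arrays fitted alone by limma, the SE for Cry2 was 0.33 (unadjusted p = 0.0783, adjusted p = 0.771). For Per1 it was 0.35 (unadjusted p = 0.122, adjusted p = 0.775). The two-sided exact permutation test at P0 gave p = 0.113 for Cry2 and p = 0.154 for Per1. The mean of the glucocorticoid targets averaged 9.39 in P0 knockouts (up to 10.03) and 8.82 in P0 wild type (up to 9.77), and that of the liver markers ran from 8.59 to 12.34 against 6.62 to 10.63; the part of the glucocorticoid targets in these differences was not tested. With the liver mean as a covariate, Cry2 was 0.42 higher (adjusted p = 0.715), Per1 0.53 higher (adjusted p = 0.715), and the Nr1d1 difference was -0.13 (adjusted p = 0.853).

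Whether the knockout difference itself changed with age was tested by the interaction, which equals the difference between the age changes of the genotypes. It called 0 of 10 clock genes and 0 of all genes (0.0%) by limma; at an unadjusted p under 0.05 it held 1 clock gene, Per3, and 6.98% of all genes. The values were 0.83 ± 0.40 for Cry2 (adjusted p = 0.711), 0.78 ± 0.45 for Per1 (adjusted p = 0.768), 0.48 ± 0.24 for Nr1d2 (adjusted p = 0.724) and 0.27 ± 0.13 for Per3 (adjusted p = 0.711). The larger age differences of these genes in knockouts were therefore not shown to differ from those in wild type. For the other 6 the value was 0.16 or less in size.

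**Figure D4:**
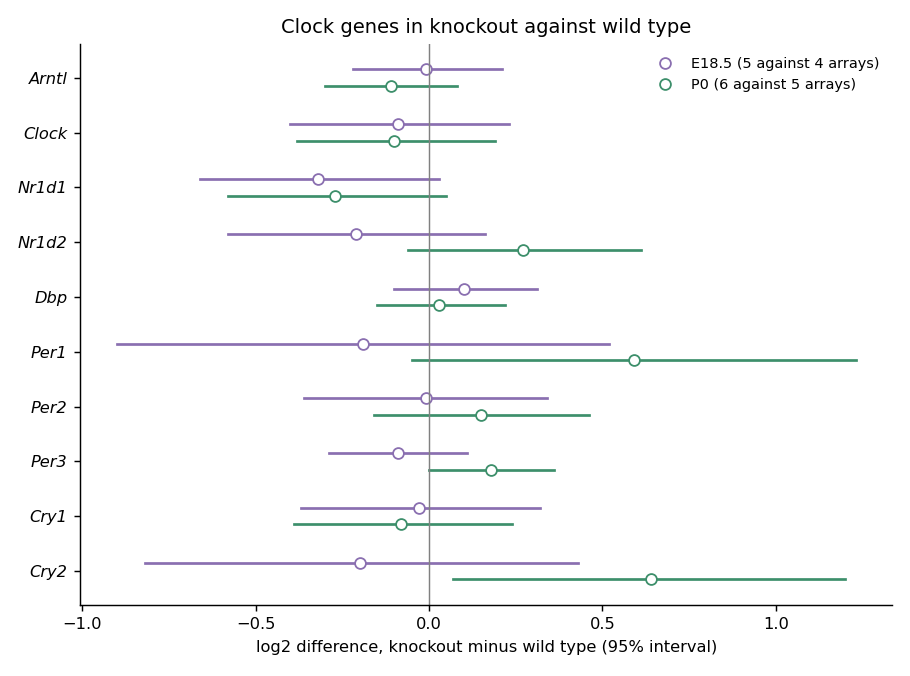
Log2 difference between knockout and wild type with its 95% interval (limma) for the 10 clock genes at E18.5 and at P0; no point passed the threshold. Nr1d1 lies left of 0 at both ages (-0.32 and -0.27), and the intervals of Per1 and Cry2 are the widest.

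Of the other clock genes none was called in a genotype contrast. With the smallest unadjusted p of their lists at P0 stood Klf9 (0.70 ± 0.28, adjusted p = 0.536), Klf10 (-0.54 ± 0.26, adjusted p = 0.569), Usp2 (0.62 ± 0.28, adjusted p = 0.569), Csnk1d (0.16 ± 0.10), Arntl2 (-0.20 ± 0.11), Rora (0.31 ± 0.24), Nfil3 (0.15 ± 0.10) and Tipin (-0.35 ± 0.23). At E18.5 these were Csnk1a1 (0.14 ± 0.10), Gsk3b, Ppara, Cdkn1a (-0.32 ± 0.43), Npas2 (0.11 ± 0.08), Arntl2 (0.14 ± 0.12), Nfil3 and Timeless, with adjusted p of 0.958 or more.

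How the clock genes varied together from array to array was read within P0, over 11 arrays of both genotypes. No correlation is given for E18.5, where the 3 arrays of numbers 20 to 22 formed a set of their own, and none across the ages. Of the 45 pairs of clock genes at P0, 1 passed after adjustment over 90 pairs: Clock with Nr1d1, at r = 0.90 (permutation p = 2e-04, adjusted p = 0.018) and rho = 0.88 (permutation p = 0.00063, adjusted p = 0.0567). Without the 2 arrays farthest from the median of Clock, r was 0.80. Per1 with Cry2 did not pass, at r = 0.76 (permutation p = 0.00239, adjusted p = 0.0717) and rho = 0.73 (permutation p = 0.0144, adjusted p = 0.323), and r was 0.54 without the 2 farthest arrays. Arntl with its repressor gene Nr1d1 had r = 0.40 (permutation p = 0.229, adjusted p = 0.719) and rho = 0.28 (permutation p = 0.403, adjusted p = 0.792), and r was -0.23 without the 2. No pair that included Arntl passed, and 35 of the 45 values of r were above 0.

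Levels of hormone and fasting response genes were set beside the clock genes in the same arrays. Glucocorticoid targets (13 genes, among them Fkbp5 and Tsc22d3) and FOXO and starvation targets (16 genes, among them Txnip and Sesn1) share Pdk4 and Klf15. In knockouts 9 of 12 tested glucocorticoid targets and 9 of 16 tested FOXO targets rose from E18.5 to P0, and none fell; in wild type 1 of 12 rose, and of the FOXO targets 3 rose and Trib1 fell. Over all tested genes 11.3% were called higher in knockouts and 4.76% in wild type. The interaction called 0 of 12 and 0 of 16 by limma, with 2 and 3 at an unadjusted p under 0.05, so the genotypes were not shown to differ in these age changes. Medians in knockouts were 0.87 and 0.52, and in wild type 0.51 and 0.12. Pdk4, which spares glucose, rose by 4.52 ± 0.82 in knockouts (adjusted p = 0.000869) and 4.63 ± 0.91 in wild type (adjusted p = 0.00544). Of 9 tested immediate early genes, Ier3 rose in knockouts and Jun and Ier2 fell in wild type, where 4.1% of all genes were called lower. Here too the interaction called 0 of 9 by limma, with 4 at an unadjusted p under 0.05.

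Within P0, Cry2 correlated with the mean of the glucocorticoid targets at r = 0.90 (permutation p = 0.00022, adjusted p = 0.00767) and rho = 0.86 (permutation p = 0.00135, adjusted p = 0.045), and r was 0.91 without the 2 farthest arrays. With the FOXO targets r was 0.91 (permutation p = 0.00023, adjusted p = 0.00767) and rho 0.91 (permutation p = 0.00029, adjusted p = 0.029), and 0.85 without the 2. Cry2 had a gap at P0: 4 arrays (3 wild type, 1 knockout) lay at 6.07 to 6.51 and 7 at 7.13 to 8.06. Among the 7 upper arrays alone r was 0.53 with the glucocorticoid targets (rho 0.46, exact permutation p = 0.22) and 0.57 with the FOXO targets (rho 0.64, exact permutation p = 0.176), but these 7 were picked by their Cry2 level after the values were seen, which narrows the range, and 7 arrays are too few to settle whether the relation holds within a set. Per1 correlated with the glucocorticoid targets at r = 0.77 (permutation p = 0.00187, adjusted p = 0.0267) and rho = 0.72 (permutation p = 0.0163, adjusted p = 0.179); r was 0.81 without the 2 arrays, and with genotype means removed it was 0.72 (adjusted p = 0.0754). These were 3 of 50 relations at P0, adjusted over 100. Nr1d1 had r = -0.27 with the glucocorticoid targets (permutation p = 0.408, adjusted p = 0.68), rho = -0.25 (permutation p = 0.467, adjusted p = 0.742) and r = -0.10 without the 2 arrays. The 50 relations also took in the liver, acinar and immediate early gene means, where none passed. Arntl with the liver mean had r = -0.75 (permutation p = 0.00811, adjusted p = 0.0619), and r = -0.20 without the 2 arrays. Nr1d1 with the liver mean had r = -0.63 (permutation p = 0.035, adjusted p = 0.175). Nr1d2 with the acinar mean had r = -0.72 (permutation p = 0.0106, adjusted p = 0.0707).

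**Figure D5:**
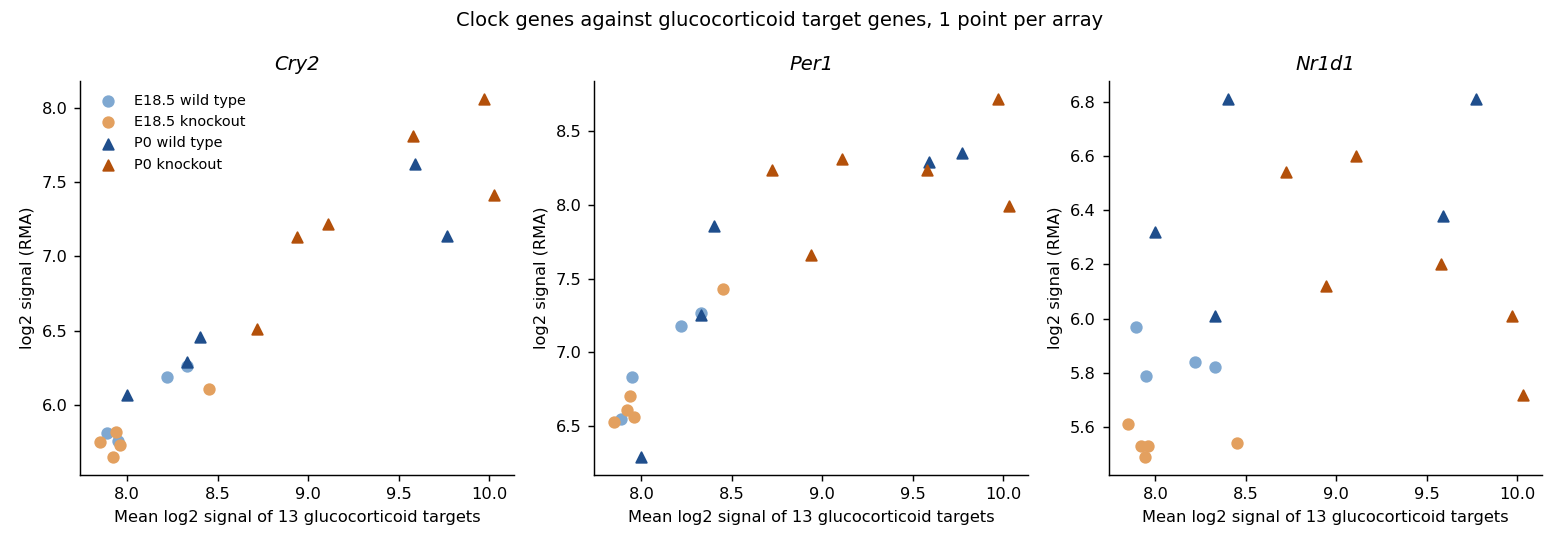
Log2 signal of Cry2, Per1 and Nr1d1 against the mean log2 signal of 13 glucocorticoid target genes, 1 point per array, circles for E18.5 and triangles for P0. At P0 Cry2 and Per1 are high where the target mean is high (r of 0.90 and 0.77), and Nr1d1 shows no such order.

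As a description, the genes most like Arntl, Nr1d1 and Dbp were sought among 12160 named genes by the correlation of residuals from the 4 group means over the 20 arrays, which share these arrays and their tissue makeup. Arntl was nearest to Vps37d (r = 0.82), Eps8l1 (0.80), Zfp112, Bin3 and Peg13 and farthest from Spcs2 (-0.78), Cad and Ifitm3. Nr1d1 was nearest to Cdr2l (0.82), Ephb4 (0.78), Xpo6, Rsad1 and Brpf1 and farthest from Anxa4 (-0.82), Taf13 and Dnajc21. Dbp was nearest to Clpsl2 (0.87), Thbs2 (0.79), Atp2a3, Tgfb2 and Tmem255b and farthest from Atic (-0.81), Arhgap44 and Mia2. No clock gene was among these. The best placed was Clock for Nr1d1, at rank 78 with r = 0.60, followed by Per3 at rank 151 with r = 0.56; Arntl had its highest clock partner in Per1, at rank 623 with r = 0.45.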

How the data were processed

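The authors deposited log2 signals per probe set, made with RMA in Affymetrix Expression Console 1.4.1.46, per the submitters' processing notes; raw scans were not used here. Of 65956 probe sets, 30604 carried 1 gene symbol, 2146 several and 33206 none. Each gene was read from its single-symbol probe set with the highest mean. A gene was tested where 4 or more arrays put it above their own median. RMA compresses small differences near background and at the ceiling. Groups came from the labels. Group means of all 20 arrays were fitted with limma 3.58.1 in R 4.3.3 (eBayes, two-sided), with Benjamini-Hochberg adjustment over 17993 genes in each of 6 contrasts and a threshold of 0.05. Array number limits the precision. Correlations used 100000 permutations. The fit was tested on simulated data.

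The 10 genes and all gene lists were chosen with earlier results of these data known. Named genes were the 10; Elapor1; in each other clock list up to 4 called genes with the largest change (all 5 called modifiers are named here, the fifth outside the rule), or else the 2 with the smallest unadjusted p; up to 2 per response list (Fkbp5, Tsc22d3, Txnip, Sesn1, Trib1, Ier3, Jun and Ier2 are named outside it or as the called ones); and the genes nearest to Arntl, Nr1d1 and Dbp, leaving out predicted genes. Alternatives were no filter and a stricter one, 3 rescalings, eBayes with trend, array weights, the compared arrays alone, a replicate block, marker and Y-linked means as covariates, probe set means, a threshold of 0.10 and single-array omissions. Settings chosen with the data in view were those on sample numbers 20 to 22, the acinar covariate and the correlation among 7 arrays. Tables and figures were made with Python 3.11.15 and matplotlib 3.10.9.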

Additional observations from a re-analysis of the deposited data

Results flagged for a closer look

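Among 40 groups of values (10 clock genes in 4 groups), 2 held an array far from the others by Dixon's criterion, which chance meets in about 1 of 20 groups. Per1 was 7.43 in E18.5 knockout replicate 5, against 6.53 to 6.70 in the other 4; this array is one of the 3 with sample numbers 20 to 22. Per3 was 5.74 in P0 wild-type replicate 5, against 5.50 to 5.56 in the other 4.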

How the results depend on the processing

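The calls of clock genes in knockouts between the ages (7) and in the genotype and interaction contrasts (0) stayed within 1.5 times under all alternatives but the acinar covariate, which cannot be told apart from age. With it, 0 clock genes and 0 of all genes were called between the ages in either genotype, and the wild-type differences turned to -0.23 for Per1, -0.19 for Per3 and -0.06 for Cry2. The wild-type count of 4 became 0 with the arrays compared alone (1008 of all genes in place of 1594), 2 with intestinal and muscle covariates (2609 of all genes in knockouts in place of 4139), 2 without numbers 20 to 22 and 1 to 4 without 1 array. Replicate numbers are shared between groups, but the correlations of same-numbered deviations were -0.031 to 0.245 between genotypes and -0.305 to 0.184 between ages, so they were not taken as pairs; with the replicate block the wild-type count was 1, the knockout count 7 and that of all genes at P0 between genotypes 1. In that genotype contrast at P0, all genes called were 2; they were 1 with array weights, the arrays alone, the liver covariate, the intestinal and muscle covariates or without numbers 20 to 22, 43 at a threshold of 0.10, and 1 to 45 without 1 array. At E18.5 they were 2, 5 with array weights and 2 to 4 without 1 array; averaged 3, 5 without numbers 20 to 22 and 3 to 5 without 1 array; the interaction 0, and 0 to 34 without 1 array. Wild-type calls between the ages were 2686 at 0.10 and 670 to 1822 without 1 array. Per2 in knockouts (-0.02) was 0.01 with centring, 0.04 without numbers 20 to 22, 0.003 with these numbers as a covariate, 0.03 with the acinar covariate and -0.12 to 0.08 without 1 array. Correlations are not given for E18.5. Limits: 4 to 6 arrays a group, no collection hour, 1 probe set per gene and signals of Per3, Arntl and Nr1d1 close to the array median.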
